A study of Mus musculus with 28 samples.

Results

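The response of JMJD3-deficient non-pathogenic Th17 (Th17n) cells to difluoromethylornithine (DFMO) was measured by RNA-seq in 6 of the 28 libraries of the series. They were the 3 libraries labelled Th17n, JMJD3CKO and DFMO and the 3 labelled Th17n, JMJD3CKO and ctrl, which came from the same 3 animals (JMJD3CKO1 to JMJD3CKO3). All mice were C57BL/6, and JMJD3CKO stands for JMJD3fl/fl CD4cre, a floxed JMJD3 gene with a Cre recombinase under the Cd4 promoter, which is active in developing T cells of both the CD4 and the CD8 lineage. The DFMO group was kept with 100 µM DFMO and the ctrl group without it. Everything else was shared. Naive spleen T cells, gated as CD4+ and CD62L+ and lacking CD25 and CD44, were stimulated on plates coated with antibodies to CD3 and CD28 (1 µg/ml of either). The cultures held 25 ng/ml IL-6 plus 2 ng/ml TGF-beta 1, lasted 68 h and ended with a sort of the live cells. The animals' age and sex are not given in the sources used here. For comparison, the same treatment was read in WT Th17n cells (4 libraries with DFMO and 4 ctrl libraries) and in JMJD3CKO iTreg cells (3 and 3), which received the same TGF-beta 1 without IL-6. The study's design asks how DFMO acts on Th17 cells when JMJD3 is deleted. All 20891 genes of the deposited tables were members, of which 10985 passed the filter on low counts and were tested.

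Polyamines are small cations that growing cells need for translation and proliferation. Ornithine decarboxylase makes putrescine from ornithine, spermidine synthase turns it into spermidine and spermine synthase makes spermine, with aminopropyl groups that come from decarboxylated S-adenosylmethionine. DFMO irreversibly inhibits ornithine decarboxylase, so it lowers putrescine and spermidine supply. Spermidine is also the substrate for hypusine, a modification of the translation factor eIF5A. JMJD3, encoded by Kdm6b, is a JmjC-domain enzyme that removes methyl groups from lysine 27 of histone H3, a mark of repressed genes. Th17 cells are known for making IL-17, whereas regulatory T cells are specified by Foxp3, and both fates start from TGF-beta signals in naive CD4 cells.

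Library depth was 3957830 to 4732039 estimated counts in the DFMO group and 2226914 to 4143568 in the ctrl group. The first principal component of the 6 libraries held 67.2% of the variance and separated the groups, with DFMO libraries at -44.6 to -40.2 and ctrl libraries at 40.0 to 44.6. No library of either group overlapped the other on it. Mitochondrially encoded transcripts made up 0.794 to 1.27% of counts with DFMO and 0.569 to 0.942% in ctrl. Defining T cell genes were abundant in both groups, but 4 of 9 tested CD4 T cell markers (Cd3d, Cd3g, Cd4 and Cd2) fell with DFMO, and the summed level of the list was 3520 to 3620 CPM with DFMO and 4180 to 4430 CPM in ctrl (CPM are counts scaled to a common library size, with TMM correction). Markers of other cells were low and mostly lower with DFMO, but not in all lists. The 6 dendritic cell genes summed to 22.7 to 23.7 CPM with DFMO and 22.0 to 24.3 CPM in ctrl, mostly Batf3. The 6 NK cell genes overlapped, at 2.53 to 3.71 CPM with DFMO and 2.39 to 7.34 CPM in ctrl. The 7 stromal and endothelial genes summed to 13.9 to 19.0 CPM with DFMO and 47.1 to 72.4 CPM in ctrl, mostly Pecam1 with Col3a1 at 0, and the 7 B cell genes to 16.7 to 19.4 CPM with DFMO and 28.2 to 36.5 CPM in ctrl, mostly Ebf1 with Blk at 0. The 7 myeloid genes summed to 2.53 to 5.18 CPM with DFMO and 15.5 to 17.9 CPM in ctrl, mostly Cd68, with Lyz2 at 0. The 2 CD8 genes summed to 10.9 to 12.4 CPM with DFMO and 22.5 to 25.9 CPM in ctrl, mostly Cd8b1. The part of these markers in the results was not tested, and in sorted bulk cultures fewer cells of a type and less RNA per cell cannot be told apart.

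Transcripts of the targeted gene were still present in the libraries, at lower means than in WT Th17n cells. Kdm6b (GRCm38 chromosome 11, 69398508 to 69413675, minus strand) stood at 24.3, 26.7 and 33.1 CPM with DFMO, against 30.3, 28.7 and 43.4 CPM in ctrl, for animals 1, 2 and 3. The difference was -0.30 ± 0.22 on the log2 scale (standard error) and did not pass the test (adjusted p = 0.26). Gene-level estimates do not resolve the deleted exons, so these values do not check the genotype. The H3K27 demethylase gene on the X chromosome, Kdm6a, was at 18.0, 20.3 and 22.9 CPM with DFMO and 26.1, 21.9 and 20.4 CPM in ctrl, a difference of -0.14 ± 0.18 (adjusted p = 0.551) whose sign turned under 4 alternatives.

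DFMO changed 5013 of the 10985 tested genes (45.6%) in JMJD3CKO Th17n cells at an adjusted p under 0.05 in edgeR's quasi-likelihood test, 2314 of them higher (21.1%) and 2699 lower (24.6%). Falls were larger than rises: 1153 genes fell and 660 rose at least 2-fold, and 321 fell and 85 rose at least 4-fold. The median log2 fold change over all tested genes was -0.06, and its median standard error was 0.19. Of the 5013 called genes, 4958 moved the same way in all 3 animals and 4842 did not overlap between groups, beside 56% of all tested genes without overlap. The share of all tested genes that moved the same way is not given. A call itself favours both traits, so neither count is separate support for the calls. The balance of rises and falls depended on the scaling and the libraries used: rises outnumbered falls on the TPM scale, without the filter, in the 6 libraries alone, and in several fits without a library. In each list below the counts are of called members among those tested, and the shares of all tested genes just given are their background. Where no member of a list was called in 1 direction, 0 members had an unadjusted p under 0.05 that way and DESeq2 called 0. Other settings called 1 ribosome biogenesis gene lower, 1 or 2 genes of the mitochondrial genome lower and 1 Th17 transcription factor gene higher.

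Genes of polyamine synthesis rose with DFMO. Of 16 genes listed, 13 were tested, 9 rose and 1 fell, with a median log2 fold change of 0.44. Srm, the spermidine synthase gene (chromosome 4, 148591503 to 148594993, plus strand), stood at 344, 384 and 424 CPM with DFMO, against 65.6, 65.3 and 80.2 CPM in ctrl. It rose by 2.44 ± 0.19 on the log2 scale, or 5.42-fold (adjusted p = 1.8e-11), and every DFMO library was far above every ctrl library. Amd1, which encodes the decarboxylase of S-adenosylmethionine (chromosome 10, 40287458 to 40302186, minus strand), was at 286, 282 and 247 CPM with DFMO and 81.2, 95.1 and 94.0 CPM in ctrl, a rise of 1.59 ± 0.14 (adjusted p = 3.24e-10). Mat2a, the S-adenosylmethionine synthetase gene, was at 181, 184 and 177 CPM with DFMO and 51.4, 62.1 and 43.1 CPM in ctrl, a rise of 1.81 ± 0.17 (adjusted p = 1.1e-09). The groups did not overlap for any of the 3 genes.

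Odc1, the gene of the enzyme that DFMO blocks (chromosome 12, 17544794 to 17551505, plus strand), changed far less. It stood at 135, 157 and 188 CPM with DFMO and at 113, 111 and 135 CPM in ctrl, so DFMO libraries were higher within each animal, while DFMO library 1 lay beside ctrl library 3. The rise of 0.41 ± 0.16 passed the test (adjusted p = 0.0355) but was lost under 7 of 17 alternatives, with adjusted p up to 0.138. Azin1, which encodes the antizyme inhibitor that frees ornithine decarboxylase, was at 121, 139 and 117 CPM with DFMO and 45.4, 51.7 and 51.9 CPM in ctrl, a rise of 1.33 ± 0.20 (adjusted p = 2.42e-06). Sms, the spermine synthase gene, was not called at 68.4, 56.9 and 71.2 CPM with DFMO and 40.8, 59.7 and 68.8 CPM in ctrl (0.20 ± 0.13, adjusted p = 0.24). The single fall in the list was Mri1 of the methionine salvage pathway (-0.32 ± 0.12), whose call was lost under 10 of 17 alternatives. Without both libraries of animal 3 the count of rises in this list was 5.

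Genes that break down polyamines or hold back their synthesis fell. The list of catabolism and transport had 10 of 15 genes tested, of which 5 fell and 2 rose (1 without both libraries of animal 3), with a median of -0.29. Oaz2, an antizyme that targets ornithine decarboxylase to the proteasome, was at 36.5, 35.6 and 37.1 CPM with DFMO and 140, 129 and 119 CPM in ctrl, and fell by 1.82 on the log2 scale (standard error 0.18, adjusted p = 1.1e-09). Oaz1, the main antizyme, was at 602, 506 and 579 CPM with DFMO and 940, 887 and 865 CPM in ctrl (-0.67 ± 0.11, adjusted p = 5.39e-06). Both antizymes were lower in each DFMO library than in each ctrl library.

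Smox, the spermine oxidase gene, was at 88.0, 114 and 88.8 CPM with DFMO and 271, 328 and 269 CPM in ctrl (-1.58 ± 0.18, adjusted p = 2.67e-08). Sat1, which encodes the acetyltransferase that marks polyamines for export or oxidation, was at 221, 220 and 184 CPM with DFMO and 390, 356 and 405 CPM in ctrl (-0.89 ± 0.09, adjusted p = 7.22e-09). Neither gene overlapped between the groups. The 2 rises in this list were amino acid carriers: Slc7a1, a transporter of cationic amino acids such as arginine, at 123, 140 and 146 CPM with DFMO and 62.4, 72.0 and 50.2 CPM in ctrl (1.16 ± 0.14, adjusted p = 4.87e-08), and Slc3a2, a heavy chain shared by several carriers, with 0.38 ± 0.12 and a call lost under 1 alternative. Per length, Oaz1 was among the most abundant genes named here, at 722 ± 67.6 TPM with DFMO and 1132 ± 73.9 TPM in ctrl (SD, n = 3 each), while Odc1 was at 78.7 ± 10.8 TPM with DFMO and 60.1 ± 5.11 TPM in ctrl.

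The hypusine branch rose modestly. Of 4 genes tested 3 rose (Eif5a, Eif5a2 and Dohh) and none fell at an adjusted p under 0.05. Eif5a, the gene of the only cellular protein family that carries hypusine, was at 2688, 2554 and 2636 CPM with DFMO and 2059, 2019 and 2021 CPM in ctrl (0.37 ± 0.08, adjusted p = 0.000389). Dohh, which completes the modification, was at 153, 140 and 133 CPM with DFMO and 77.5, 75.6 and 75.1 CPM in ctrl (0.90 ± 0.12, adjusted p = 5.38e-07). Dhps, which starts it from spermidine, was at 59.0, 55.2 and 60.4 CPM with DFMO and 45.4, 66.1 and 41.1 CPM in ctrl, and the groups overlapped (0.21 ± 0.16, adjusted p = 0.326).

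**Figure D1:**
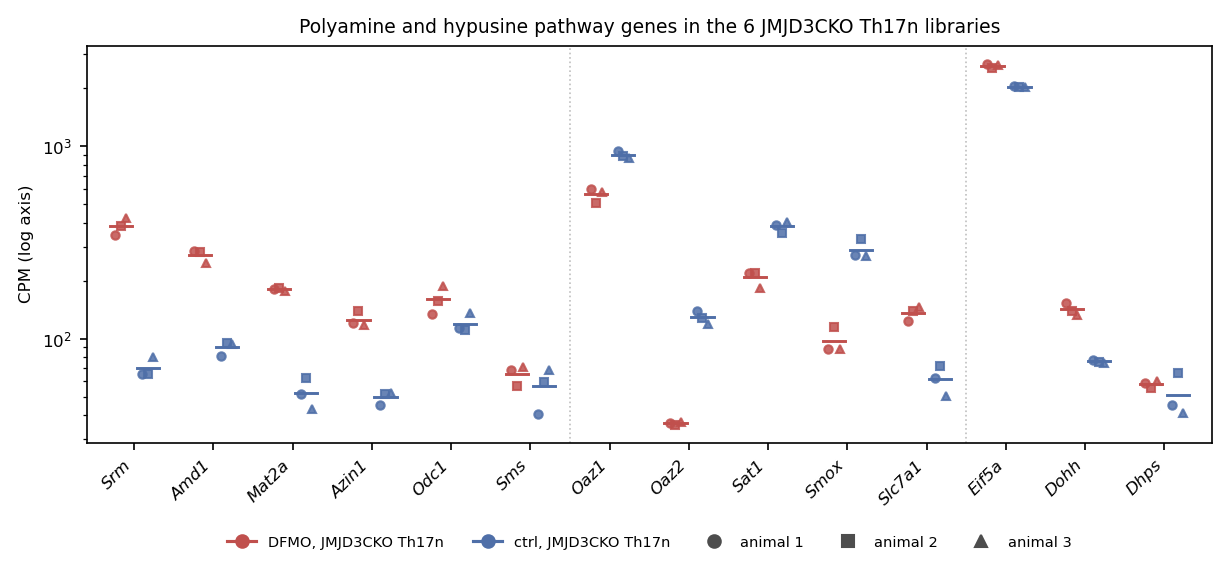
Level of polyamine and hypusine pathway genes in CPM (log axis) in each JMJD3CKO Th17n library, DFMO left of ctrl for each gene. Points are libraries, with 1 shape per animal, and lines are means of 3. Srm, Amd1, Mat2a and Azin1 lie higher with DFMO without overlap, Oaz1, Oaz2, Sat1 and Smox lie lower without overlap, and Sms and Dhps overlap.

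Among Th17 regulators, none of 19 transcription factor genes rose and 8 fell, with a median of -0.38. Stat3, which carries the IL-6 signal, was at 520, 501 and 444 CPM with DFMO and 961, 928 and 969 CPM in ctrl (-0.96 ± 0.09, adjusted p = 8.41e-10). Satb1, a chromatin organiser of T cells, was at 196, 235 and 200 CPM with DFMO and 541, 569 and 490 CPM in ctrl (-1.34 ± 0.13, adjusted p = 8.6e-10). Both were lower in every DFMO library. Hif1a (-1.02 ± 0.16) and the AP-1 gene Fosl2 (-0.89 ± 0.14) fell as well.

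The cytokine genes moved both ways, with 5 rises and 3 falls among 14 tested of 18 listed. Il17a (chromosome 1, 20730905 to 20734496, plus strand) was at 26.6, 42.8 and 34.5 CPM with DFMO and 58.7, 105.4 and 90.2 CPM in ctrl, lower in all animals without overlap. Its change of -1.30 ± 0.45 (adjusted p = 0.0207) lost its call under 9 of 17 alternatives, whose adjusted p ran from 3.46e-10 to 0.138 over all 17. Il17f, its neighbour on chromosome 1, was at 545, 626 and 620 CPM with DFMO and 711, 984 and 872 CPM in ctrl. It was also lower without overlap but did not pass in the main fit (-0.52 ± 0.35, adjusted p = 0.23). That fit shares its spread over all groups. The SD of Il17f was 223 CPM with DFMO and 329 CPM in ctrl in WT Th17n cells, against 45.4 and 137 CPM here. It was called under 4 of 17 alternatives: the animal as a replicate block (-0.51, adjusted p = 0.0265), no filter (0.0321), and the 6 libraries alone without (0.00105) and with the block (3.02e-07). Il23r, the receptor gene that stabilises Th17 cells, was at 3.83, 5.20 and 3.999 CPM with DFMO and 6.88, 6.76 and 9.33 CPM in ctrl (-0.84 ± 0.37, adjusted p = 0.067), and it was called under 2 of 17 alternatives.

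Falls passed clearly for Il24, an IL-10 family cytokine, at 35.3, 72.7 and 56.8 CPM with DFMO and 289, 321 and 354 CPM in ctrl (-2.55 ± 0.22, adjusted p = 1.94e-10). Tgfb3, a cytokine that Th17 cells make themselves, was at 21.6, 14.1 and 17.9 CPM with DFMO and 155, 166 and 165 CPM in ctrl (-3.18 ± 0.25, adjusted p = 9.31e-11). Neither overlapped. In the other direction, Il9 was at 256, 195 and 299 CPM with DFMO and 23.8, 35.4 and 18.7 CPM in ctrl, a 9.83-fold rise (3.30 ± 0.40, adjusted p = 9.03e-08).

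Il2, the T cell growth factor gene (chromosome 3, 37120523 to 37125959, minus strand), was at 181, 132 and 204 CPM with DFMO and 31.6, 23.1 and 7.06 CPM in ctrl (3.17 ± 0.41, adjusted p = 2.52e-07), with ctrl library 3 the lowest. Ccl20, the ligand of the Th17 receptor CCR6, was at 51.3, 53.2 and 69.5 CPM with DFMO and 9.63, 20.3 and 10.8 CPM in ctrl (2.11 ± 0.31, adjusted p = 1.72e-06). Il21 was at 330, 326 and 271 CPM with DFMO and 210, 225 and 180 CPM in ctrl (0.59 ± 0.14, adjusted p = 0.00141), a call lost on the TPM scale with adjusted p of 0.18 and 0.604 for pseudocounts of 1 and 0.1. Every DFMO library of Il2, Ccl20 and Il21 lay above every ctrl library. Il2, Il9 and Tnf rose beside the Th17 falls, and the list's median was 0.08.

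**Figure D2:**
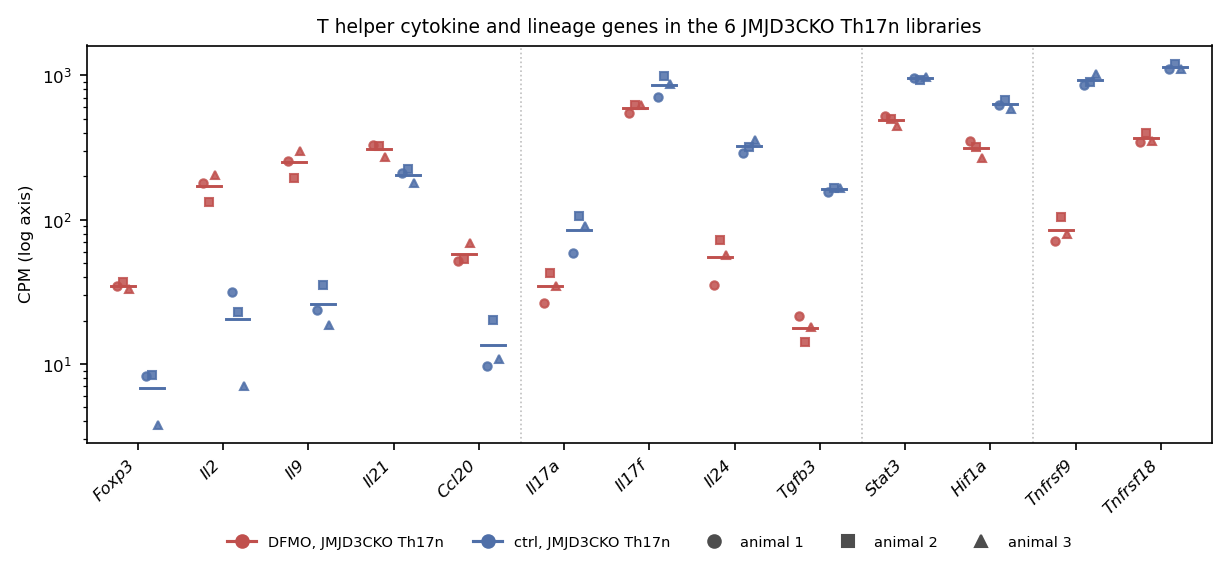
Level of T helper cytokine and lineage genes in CPM (log axis) in each JMJD3CKO Th17n library, DFMO left of ctrl for each gene, with 1 shape per animal and lines for means of 3. Foxp3, Il2, Il9, Il21 and Ccl20 lie higher with DFMO. Il17a, Il17f, Il24, Tgfb3, Stat3, Hif1a, Tnfrsf9 and Tnfrsf18 lie lower, of which Il17f did not pass the test in the main fit.

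Foxp3 rose while most genes that regulatory T cells share with activated T cells fell. Foxp3 (X chromosome, 7573644 to 7595245, plus strand) was at 34.4, 37.1 and 33.3 CPM with DFMO and 8.25, 8.36 and 3.78 CPM in ctrl. Its rise was 5.48-fold (2.45 ± 0.31 on the log2 scale, adjusted p = 1.53e-07) without overlap. In JMJD3CKO iTreg cells, which received TGF-beta 1 alone, Foxp3 averaged 351 ± 32.1 CPM with DFMO and 306 ± 42.6 CPM in ctrl (SD, n = 3 each), so the level in DFMO-treated Th17n cells, 34.9 ± 1.97 CPM, remained far below it. Of 21 tested genes of the Treg list 12 fell and 3 rose, with a median of -0.78. Besides Foxp3 the rises were Nrp1, a co-receptor found on thymic regulatory T cells (2.40 ± 0.31), and Gpr83 (0.78 ± 0.14).

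The falls in that list included surface receptors and the ectoenzyme Entpd1. Tnfrsf9, the costimulatory receptor 4-1BB, was at 71.4, 104 and 79.4 CPM with DFMO and 860, 894 and 1025 CPM in ctrl, a 10.9-fold fall (-3.45 ± 0.17) with the smallest adjusted p of the list, 2.97e-15. Tnfrsf18, the receptor GITR, was at 348, 401 and 353 CPM with DFMO and 1106, 1208 and 1116 CPM in ctrl (-1.64 ± 0.10, adjusted p = 5.16e-13). Entpd1, the ectonucleotidase CD39, was at 4.28, 3.46 and 3.79 CPM with DFMO and 29.3, 20.3 and 27.7 CPM in ctrl (-2.73 ± 0.34, adjusted p = 1.36e-07). Lag3, an inhibitory receptor, fell by 1.47 (standard error 0.18). No DFMO library of these 4 genes reached a ctrl library.

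The list of receptors and related genes of Th17 and helper cells had 8 falls and 2 rises among 19 tested, and 5 falls without DFMO library 3. Il12rb2, which carries the IL-12 signal, was at 57.0, 40.1 and 42.7 CPM with DFMO and 244, 225 and 216 CPM in ctrl (-2.29 ± 0.40, adjusted p = 2.13e-05). Il10ra (-2.04 ± 0.31) and the leukotriene receptor gene Ltb4r1 (-1.54 ± 0.21) fell too. The rises were Cd5l, a lipid-metabolism regulator of non-pathogenic Th17 cells that is not itself a receptor, at 44.8, 27.95 and 46.5 CPM with DFMO and 5.04, 11.1 and 8.07 CPM in ctrl (2.28 ± 0.30, adjusted p = 3.7e-07), and the TGF-beta receptor gene Tgfbr1 (0.81 ± 0.31), whose groups overlapped and whose call was lost under 7 of 17 alternatives.

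Signalling genes downstream of IL-6 and IL-2 fell, with 7 falls and 1 rise among 14 genes of the IL-6 and STAT3 list and 7 falls and 2 rises among 15 of the IL-2 and STAT5 list. Socs3, a feedback inhibitor induced by STAT3, was at 309, 278 and 262 CPM with DFMO and 612, 611 and 577 CPM in ctrl (-1.08 ± 0.11, adjusted p = 1.32e-09). The kinase gene Pim2 fell by 2.08 (standard error 0.15). Stat5a, the IL-2 signal transducer, was at 215, 217 and 197 CPM with DFMO and 490, 532 and 582 CPM in ctrl (-1.35 ± 0.12, adjusted p = 2.66e-10). Socs2, a STAT5-induced inhibitor, ran the other way at 259, 255 and 257 CPM with DFMO and 74.7, 56.5 and 59.5 CPM in ctrl (2.02 ± 0.14, adjusted p = 2.73e-12). The rise in the IL-6 list was Il21 and the other rise in the IL-2 list was Il2 itself. The TGF-beta response list had 3 rises and 3 falls among 18 and a median of -0.08, with 1 rise without ctrl library 1, DFMO library 2, DFMO library 3 or both libraries of animal 2 or 3.

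T cell receptor and co-stimulation genes moved both ways. The share called was 71.4% in the TNF family list, beside 45.6% of all tested genes. It was closer to that background for receptor signalling (54.5%), immediate early genes (45.8%) and NF-kappaB targets (56.2%), so no shift of these lists is read. Of 22 receptor signalling genes 9 fell and 3 rose, and of 21 genes of the TNF family 10 fell and 5 rose. Without ctrl library 1 the TNF family had 2 rises, and 3 without ctrl library 3 or DFMO library 3. The receptor signalling list had 6 falls without DFMO library 1 or 3, and 5 or 6 rises without the filter, on the TPM scale and in the 6 libraries alone. Cblb, a ubiquitin ligase that restrains T cell activation, was at 31.1, 32.7 and 29.5 CPM with DFMO and 167, 160 and 162 CPM in ctrl (-2.39 ± 0.16, adjusted p = 7.91e-13). Cd3d, part of the receptor complex, was at 287, 289 and 306 CPM with DFMO and 460, 490 and 470 CPM in ctrl (-0.69 ± 0.10, adjusted p = 1.25e-06). Neither overlapped. Rises came in Nfatc1 (0.94 ± 0.15), the adaptor genes Lat (0.41 ± 0.11) and Lcp2 (0.38 ± 0.08), and the activation-induced genes Nr4a1 (1.33 ± 0.16), Atf3 (1.13 ± 0.19) and Pdcd1 (1.11 ± 0.13). Of 24 immediate early genes 7 rose and 4 fell (Ier3, Fosl2, Dusp4 and Dusp6), and of 16 NF-kappaB targets 6 fell (3 without the filter) and 3 rose (1 without ctrl library 1), with Traf1 at -1.64 ± 0.12. In the 6 libraries alone with the replicate block 11 immediate early genes rose.

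Single chemokine and adhesion genes had some of the largest differences. The shares called in these lists, 56.2% and 55.6%, were not far above the 45.6% of all tested genes. Of 16 chemokine and receptor genes 6 fell and 3 rose, with 3 falls without ctrl library 2, ctrl library 3, DFMO library 1 or DFMO library 3. Ccl4, a macrophage inflammatory protein gene, was at 25.0, 19.8 and 33.5 CPM with DFMO and 2.75, 3.58 and 4.28 CPM in ctrl (2.82 ± 0.31, adjusted p = 1.72e-08). Its relative Ccl3 had 139 counts over the DFMO libraries and 1 count over the ctrl libraries, a ratio of 91 with a 95% counting interval of 16.1 to 3620. Ccr7, which guides naive cells to lymph nodes, fell to 887, 914 and 761 CPM with DFMO, against 1691, 1548 and 1503 CPM in ctrl (-0.89 ± 0.11). Of 18 adhesion genes 8 fell, among them Cdh17, and 2 rose, Nrp1 and the integrin gene Itgb1 (1.86 ± 0.33).

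Genes that build ribosomes rose almost as a block. Of 34 tested, 31 rose and none fell at an adjusted p under 0.05, with a median log2 fold change of 1.07 against -0.06 over all genes. Nolc1, a nucleolar chaperone gene, was at 284, 263 and 261 CPM with DFMO and 66.0, 93.9 and 69.1 CPM in ctrl (1.82 ± 0.11, adjusted p = 2.29e-13). Nop56, a core protein of small nucleolar ribonucleoproteins, was at 580, 567 and 554 CPM with DFMO and 197, 205 and 182 CPM in ctrl (1.55 ± 0.10, adjusted p = 7.45e-13). The groups were clearly apart for both. Dkc1, the pseudouridine synthase gene, rose by 1.46 ± 0.10, and Gar1, its partner, by 2.57 ± 0.31.

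The polymerases that transcribe ribosomal and transfer RNA had 11 rises and 3 falls (1 without ctrl library 2) among 25 subunits and factors, with Ubtf at 1.25 ± 0.12 and Polr1b at 1.32 ± 0.15. Translation factors had 17 rises and 6 falls among 35, such as Eif4g1 (0.84 ± 0.09). The translation repressor gene Eif4ebp1 fell to 249, 287 and 284 CPM with DFMO, against 500, 524 and 478 CPM in ctrl (-0.87 ± 0.12, adjusted p = 1.04e-06). Of the 38 cytosolic ribosomal protein genes 33 were not called, 4 fell (Rpl3, Rpl4, Rpl10a and Rps6) and 1 rose (Rpl5), their median was -0.04, and the lowest and highest values were -0.44 and 0.38. These calls moved with the setting: other settings gave 0 to 6 rises and 1 to 7 falls, with 5 rises with the replicate block, on the TPM scale and without the filter, 3 without DFMO library 1 or 2, and 0 without ctrl library 1. Falls were 2 without ctrl library 2, DFMO library 1 or DFMO library 3. The call of Rpl4 was lost under 6, that of Rpl3 under 3 and that of Rpl5 under 2 of 17 alternatives. Transfer RNA synthetases had 8 rises and 3 falls among 20, and amino acid transporters 10 rises and 1 fall among 17, the fall being the lysosomal arginine sensor gene Slc38a9 (-1.07 ± 0.20). Without both libraries of animal 3 the rises were 5 in either list, and the synthetases had 13 in the 6 libraries alone with the replicate block.

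**Figure D3:**
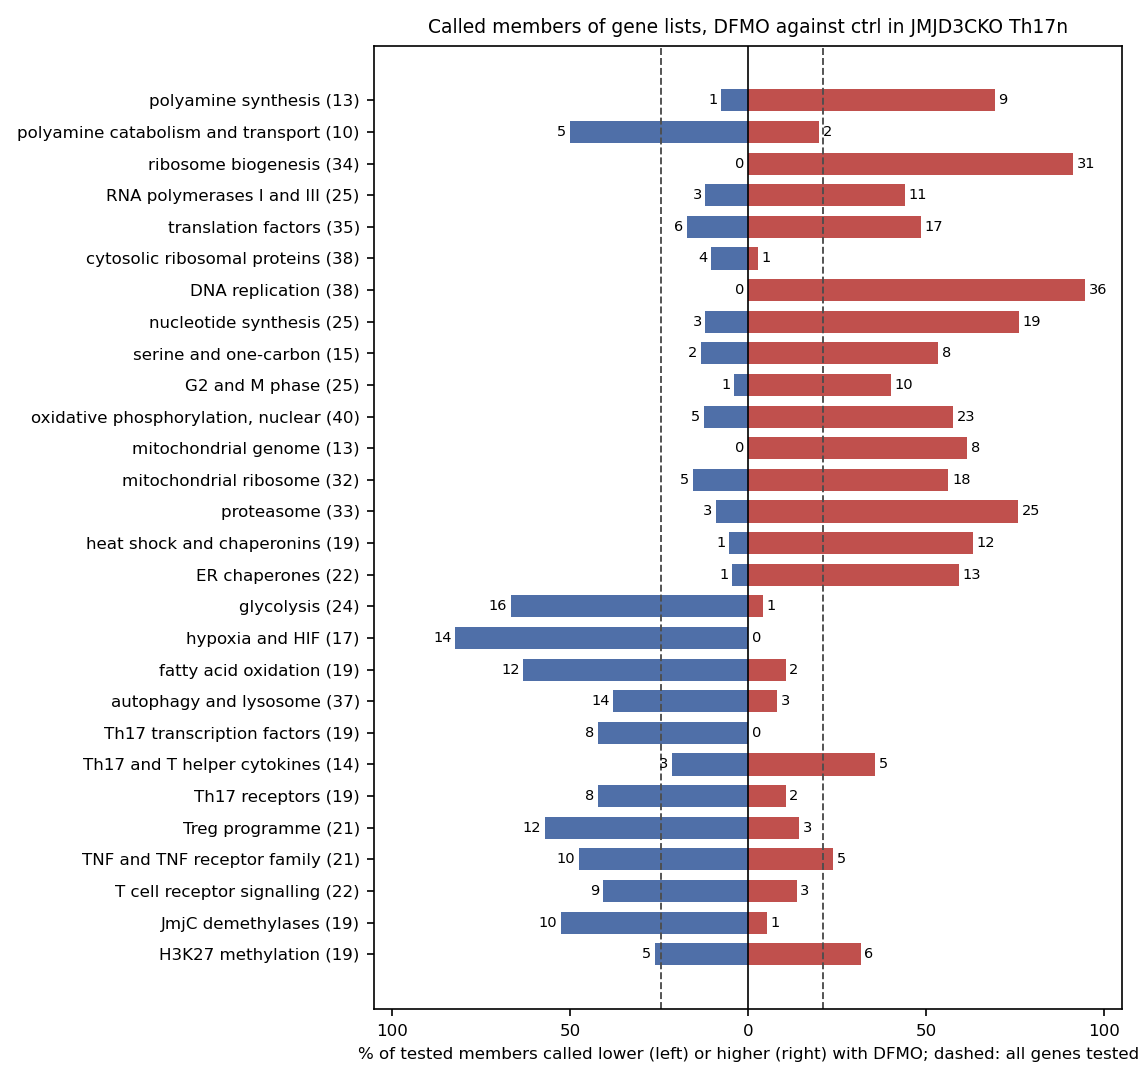
Share of tested members of 28 gene lists that were called lower (left) or higher (right) with DFMO in JMJD3CKO Th17n cells, in percent. Numbers beside bars are counts, numbers in brackets are members tested, and dashed lines mark all tested genes (24.6% lower, 21.1% higher). DNA replication and ribosome biogenesis extend furthest to the right and hypoxia and glycolysis furthest to the left.

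DNA replication genes moved in 1 direction. Of 38 tested, 36 rose and none fell at an adjusted p under 0.05, with a median of 0.97. Fen1, the flap endonuclease that matures Okazaki fragments, was at 255, 222 and 227 CPM with DFMO and 69.7, 65.3 and 65.8 CPM in ctrl (1.81 ± 0.11, adjusted p = 3.12e-13). Mcm5, a subunit of the replicative helicase, was at 662, 640 and 601 CPM with DFMO and 230, 223 and 230 CPM in ctrl (1.48 ± 0.11, adjusted p = 1.11e-11). Cdc6, which loads that helicase, was at 120, 125 and 107 CPM with DFMO and 29.3, 25.9 and 33.5 CPM in ctrl (1.97 ± 0.15, adjusted p = 7.5e-12). All 3 genes were well above ctrl in each DFMO library.

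Nucleotide synthesis followed, with 19 rises and 3 falls among 25 and a median of 0.94. Rrm2, the regulatory subunit of ribonucleotide reductase, was at 588, 516 and 482 CPM with DFMO and 137, 131 and 113 CPM in ctrl (2.06 ± 0.11, adjusted p = 1.08e-14). Tyms, the thymidylate synthase gene, was at 141, 135 and 161 CPM with DFMO and 48.6, 50.5 and 45.4 CPM in ctrl (1.60 ± 0.11, adjusted p = 1.35e-12). The groups did not overlap. Ctps2, Impdh1 and Adss fell, with 1 fall left in the list without ctrl library 3 or DFMO library 1, and the call of Impdh1 lost under 4 and that of Adss under 11 of 17 alternatives.

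Mitotic genes rose less uniformly, with 10 rises and 1 fall among 25 and a median of 0.18. Birc5 was at 249, 207 and 234 CPM with DFMO and 125, 93.5 and 87.2 CPM in ctrl (1.19 ± 0.13), and the phosphatase gene Cdc25b was the fall (-0.71 ± 0.19), with a call lost under 1 alternative. Of 22 cyclins and inhibitors 8 fell and 5 rose. The rises were Ccne2 (2.08 ± 0.27), Ccne1 (0.72 ± 0.11), Cdk2 (0.60 ± 0.11), Cdk4 (0.49 ± 0.09) and E2f3 (1.03 ± 0.23, a call lost under 2 alternatives). The falls included Cdkn1a, the cyclin-dependent kinase inhibitor p21, at 208, 241 and 214 CPM with DFMO and 460, 486 and 441 CPM in ctrl (-1.06 ± 0.10, adjusted p = 1.32e-09), whereas Trp53, the gene of its activator p53, rose and stood at 354, 334 and 351 CPM with DFMO and 195, 169 and 161 CPM in ctrl (0.99 ± 0.10, adjusted p = 1.59e-09).

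Promoter sequences were read for all tested members of some lists, whether called or not, because E2F factors control many replication genes. The shares of matches therefore describe the lists and not the response to DFMO. The windows run from 250 bases before to 50 bases after each annotated start, from RefSeq's annotation of GRCm38.p6. The E2F motif was searched as TTTGGCGC or TTTCGCGC on both strands, and a site can hold overlapping matches in both directions. It was present in the windows of 10 of 30 DNA replication genes with a window (33.3%), beside 1.87% of all tested genes and 0.929% of all genes with one. The windows of Mcm5 (plus strand, chr8:75109259-75109558, matches starting 153 and 149 bases before the start) and Lig1, the DNA ligase that seals Okazaki fragments and rose by 1.15 ± 0.09 (plus strand, chr7:13278576-13278875, a match starting at base 26 after the start), are shown because they were the called replication genes of smallest adjusted p with a match, which is in capitals.
Mcm5: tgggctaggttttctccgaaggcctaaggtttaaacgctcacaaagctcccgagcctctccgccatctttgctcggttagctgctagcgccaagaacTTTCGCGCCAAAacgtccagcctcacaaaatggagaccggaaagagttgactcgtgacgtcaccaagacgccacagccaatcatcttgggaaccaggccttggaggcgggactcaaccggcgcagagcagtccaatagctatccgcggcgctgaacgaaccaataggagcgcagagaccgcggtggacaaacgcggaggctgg
Lig1: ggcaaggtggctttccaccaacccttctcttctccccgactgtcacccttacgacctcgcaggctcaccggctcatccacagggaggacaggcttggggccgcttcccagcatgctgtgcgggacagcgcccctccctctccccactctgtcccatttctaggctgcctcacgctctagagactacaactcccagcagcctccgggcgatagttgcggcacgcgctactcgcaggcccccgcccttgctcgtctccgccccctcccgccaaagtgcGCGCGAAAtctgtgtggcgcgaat
A match describes the letters in the window, and no binding was measured.

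Mitochondrial genes rose. Of 40 nuclear genes of the respiratory chain and ATP synthase 23 rose and 5 fell, with a median of 0.38, and of 32 mitochondrial ribosome genes 18 rose and 5 fell. Without any 1 of the 6 libraries the falls were 1 to 3 in the respiratory list and 2 or 3 in the ribosome list, and without the filter 0 and 2. Ndufa4 was at 287, 274 and 317 CPM with DFMO and 133, 132 and 136 CPM in ctrl (1.13 ± 0.10, adjusted p = 5e-10). Atp5g1, of the ATP synthase ring, was at 260, 252 and 290 CPM with DFMO and 125, 135 and 120 CPM in ctrl (1.08 ± 0.12, adjusted p = 1.12e-08). Of 13 genes of the mitochondrial genome 8 rose (5 without ctrl library 1 or DFMO library 3) and none fell at an adjusted p under 0.05. mt-Nd1 was at 1715, 2182 and 2396 CPM with DFMO and 555, 762 and 964 CPM in ctrl (1.46 ± 0.29, adjusted p = 0.000134), with animal 3 highest and animal 1 lowest in both groups. The short genes mt-Nd4l (74.7, 68.5 and 146 CPM with DFMO and 0, 0 and 17.1 CPM in ctrl) and mt-Nd3 (47.5, 64.3 and 80.2 CPM with DFMO and 0, 0 and 26.2 CPM in ctrl) were at 0 in the ctrl libraries of animals 1 and 2, so their folds are not given.

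Genes of glycolysis fell. Of 24 tested 16 fell and 1 rose, with a median of -0.60. Aldoc, an aldolase gene, was at 45.9, 49.0 and 46.5 CPM with DFMO and 385, 351 and 387 CPM in ctrl (-2.99 ± 0.16, adjusted p = 1.68e-14). Slc2a3, the glucose transporter GLUT3, was at 136, 146 and 117 CPM with DFMO and 675, 655 and 690 CPM in ctrl (-2.34 ± 0.23, adjusted p = 2.17e-09). Aldoa, the main aldolase of lymphocytes, was at 3485, 3715 and 3510 CPM with DFMO and 6584, 6786 and 6659 CPM in ctrl (-0.90 ± 0.10, adjusted p = 3.67e-08). DFMO libraries of all 3 were below every ctrl library. The single rise was Slc16a1, a lactate and pyruvate carrier (0.57 ± 0.16).

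Hypoxia-inducible genes fell further, with 14 falls and no rise among 17 tested at an adjusted p under 0.05 and a median of -1.02. Ndrg1 was at 104, 144 and 123 CPM with DFMO and 510, 516 and 537 CPM in ctrl (-2.08 ± 0.16, adjusted p = 2.08e-11). Bnip3l, a mitophagy receptor gene, was at 183, 186 and 178 CPM with DFMO and 554, 558 and 578 CPM in ctrl (-1.63 ± 0.10, adjusted p = 2.18e-13). The prolyl hydroxylase gene P4ha1 was at 180, 187 and 181 CPM with DFMO and 379, 283 and 388 CPM in ctrl (-0.94 ± 0.10, adjusted p = 6.47e-09). The groups were apart for each. Fatty acid oxidation genes fell alongside, 12 of 19 with 2 rises, such as Hadh at -0.88 ± 0.10, while the tricarboxylic acid cycle was mixed with 10 falls and 7 rises among 27. Without ctrl library 1 the tricarboxylic acid cycle had 4 rises and fatty acid oxidation 1, and without both libraries of animal 2 fatty acid oxidation had 7 falls.

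The core of the hypoxia response element, searched as TACGTG or GACGTG on both strands, was in the windows of 13 of 23 glycolysis genes (56.5%) and 8 of 15 hypoxia genes (53.3%), beside 15.1% of all tested genes. Aldoc (plus strand, chr11:78322823-78323122, match starting at base 27 after the start) and P4ha1 (plus strand, chr10:59323046-59323345, match starting 16 bases before the start) are shown because they had the smallest adjusted p among called genes of the glycolysis and hypoxia lists with a match, in capitals.
Aldoc: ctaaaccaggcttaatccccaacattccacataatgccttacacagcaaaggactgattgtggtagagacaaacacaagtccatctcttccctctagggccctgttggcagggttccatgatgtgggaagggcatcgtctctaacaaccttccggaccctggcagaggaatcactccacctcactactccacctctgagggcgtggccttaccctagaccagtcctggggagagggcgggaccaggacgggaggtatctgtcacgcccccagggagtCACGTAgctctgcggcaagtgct
P4ha1: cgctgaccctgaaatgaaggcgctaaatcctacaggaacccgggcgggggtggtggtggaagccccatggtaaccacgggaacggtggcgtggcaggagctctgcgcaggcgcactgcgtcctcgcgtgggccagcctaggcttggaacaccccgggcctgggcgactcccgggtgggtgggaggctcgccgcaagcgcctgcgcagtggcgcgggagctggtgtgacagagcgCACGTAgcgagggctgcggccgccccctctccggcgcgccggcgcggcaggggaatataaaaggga
The letters say nothing of whether a factor was bound in these cells. These shares, too, cover all tested members of a list, called or not, and do not describe the response to DFMO. The E-box CACGTG, which the searched cores do not include, was in the windows of 6 of 29 ribosome biogenesis genes (20.7%), 2 of 10 polyamine synthesis genes (20%), 5 of 22 nucleotide synthesis genes (22.7%), 3 of 15 hypoxia genes (20%), 4 of 23 glycolysis genes (17.4%) and 5 of 30 DNA replication genes (16.7%), beside 11.9% of all tested genes. It was in those of 0 of 11 Th17 cytokine genes and 1 of 14 Treg genes (7.14%), below that share. Each share rests on few genes.

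Protein quality control genes mostly rose. Proteasome subunits had 25 rises and 3 falls among 33 and a median of 0.42, heat shock genes and chaperonins 12 rises and 1 fall among 19, and chaperones of the endoplasmic reticulum 13 rises and 1 fall among 22. Psmc4, an ATPase of the 19S cap, was at 303, 290 and 292 CPM with DFMO and 127, 141 and 115 CPM in ctrl (1.21 ± 0.11, adjusted p = 8.45e-10). Hspd1, the mitochondrial chaperonin, was at 768, 768 and 755 CPM with DFMO and 313, 349 and 347 CPM in ctrl (1.18 ± 0.09, adjusted p = 7.28e-12). Manf, an endoplasmic reticulum stress factor, rose by 1.21 ± 0.13. Among the proteasome falls were Psme1 (-0.55 ± 0.13) and Psme2 (-0.60 ± 0.15), the interferon-induced activator, each with a call lost under 1 alternative, and Psmc6, lost under 12 of 17. Autophagy and lysosome genes went the other way, with 14 falls and 3 rises among 37, such as Gabarap at -0.85 ± 0.11. Without both libraries of animal 2 the proteasome list had 0 falls, without those of animal 3 the autophagy list had 8, and the heat shock list had 0 to 2 falls without a single library.

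Among chromatin genes, JmjC demethylases are the family to which JMJD3 belongs. Of 19 tested 10 fell and 1 rose, with a median of -0.49, and the falls were 6 without both libraries of animal 1 and 7 on the TPM scale. Kdm5b, which demethylates lysine 4 of histone H3, was at 56.3, 53.9 and 49.0 CPM with DFMO and 131, 117 and 128 CPM in ctrl (-1.24 ± 0.11, adjusted p = 3.13e-10). Jmjd6 fell by 0.67 (standard error 0.11). The single rise, Kdm2b (0.38 ± 0.14), was lost under 7 of 17 alternatives, and Kdm6b itself was not called.

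Genes around H3K27 methylation split, 6 up and 5 down among 19 (57.9% called, beside 45.6% of all tested genes). Rbbp7, a histone chaperone of Polycomb complex 2, was at 599, 552 and 566 CPM with DFMO and 299, 288 and 275 CPM in ctrl (0.99 ± 0.08, adjusted p = 1.31e-11), and Phf19 rose by 1.36 ± 0.16. The methyltransferase gene Ezh1 was at 34.0, 44.8 and 32.2 CPM with DFMO and 89.4, 79.2 and 103 CPM in ctrl (-1.30 ± 0.15, adjusted p = 5.85e-08), and the complex's accessory genes Jarid2 (-1.10 ± 0.16), Phf1 (-1.81 ± 0.31) and Aebp2 (-0.83 ± 0.13) fell. Of 13 COMPASS genes, which methylate lysine 4, 5 rose and none fell at an adjusted p under 0.05. In DNA methylation 4 rose and 3 fell among 9, with the maintenance factor gene Uhrf1 at 0.97 ± 0.09 and the demethylase gene Tet2 at 52.2, 54.4 and 51.8 CPM with DFMO and 152, 128 and 138 CPM in ctrl (-1.40 ± 0.11, adjusted p = 1.94e-11).

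Over all tested genes with a mean of at least 10 CPM, the largest called falls and rises were as follows. Gipr, the receptor of an incretin hormone, was at 1.80, 4.21 and 2.74 CPM with DFMO and 83.4, 94.7 and 95.5 CPM in ctrl (-4.97 ± 0.33, adjusted p = 8.75e-13). Selenbp1, a selenium-binding protein gene, was at 16.0, 21.8 and 19.2 CPM with DFMO and 292, 307 and 276 CPM in ctrl (-3.94 ± 0.29, adjusted p = 7.72e-12). C3, the central complement component, was at 5.85, 5.69 and 1.68 CPM with DFMO and 65.1, 63.7 and 63.8 CPM in ctrl (-3.88 ± 0.29, adjusted p = 1.19e-11). None of them overlapped.

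Gdpd2 had 1 count over the DFMO libraries and 232 over the ctrl libraries, so the ctrl to DFMO ratio was 355 with a 95% counting interval of 63 to 14100. Fam114a1 (-4.75 ± 0.32), Haao (-4.72 ± 0.35), Rcn3 (-4.59 ± 0.41), Ltbp3 (-4.24 ± 0.46), the cadherin gene Cdh17 (-3.96 ± 0.37), Gad1 (-3.74 ± 0.64, a call lost under 1 alternative) and Nos2, the inducible nitric oxide synthase (-3.46 ± 0.41), completed the 12 largest falls with Tnfrsf9. The 12 largest rises were mt-Nd4l, mt-Nd3, Il9, Il2, Ccl4, Gar1, Foxp3 and Srm, described above, and Chst2, Hist1h2ag, Tgtp1 and Slamf6. Chst2, a sulfotransferase gene, was at 48.4, 41.1 and 43.6 CPM with DFMO and 5.96, 3.58 and 4.03 CPM in ctrl (3.32 ± 0.27, adjusted p = 5.39e-11). Hist1h2ag (3.22 ± 0.46) and Tgtp1 (2.93 ± 0.54) have near-identical copies that share reads, so their own levels are uncertain.

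The response in JMJD3CKO Th17n cells was set against that in WT Th17n cells, whose libraries are separate. DFMO changed 5690 genes in WT (51.8%), and 4281 genes were called in both, which is 85.4% of the JMJD3CKO calls and 75.2% of the WT calls. Of these, 4274 had the same sign. The test of the difference itself called 36 of 10985 genes (0.328%), 4 with a difference above 0 (0.0364%) and 32 with one below 0 (0.291%), taken as the log2 response in JMJD3CKO minus that in WT, and 753 had an unadjusted p under 0.05. Other settings gave 6 to 132 genes. In simulated data with few genes changed, the test of this difference recovered 16.4% of 1.5-fold and 55.2% of 2-fold differences, so modest differences can be missed. List members among the 36 were Ier2, Dusp2, Itgb7, Eif3f and Ly6g. Of 13 polyamine synthesis genes 0 were called in edgeR and 1 had an unadjusted p under 0.05, and at a background of 0.328% nothing is read from that 0.

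**Figure D4:**
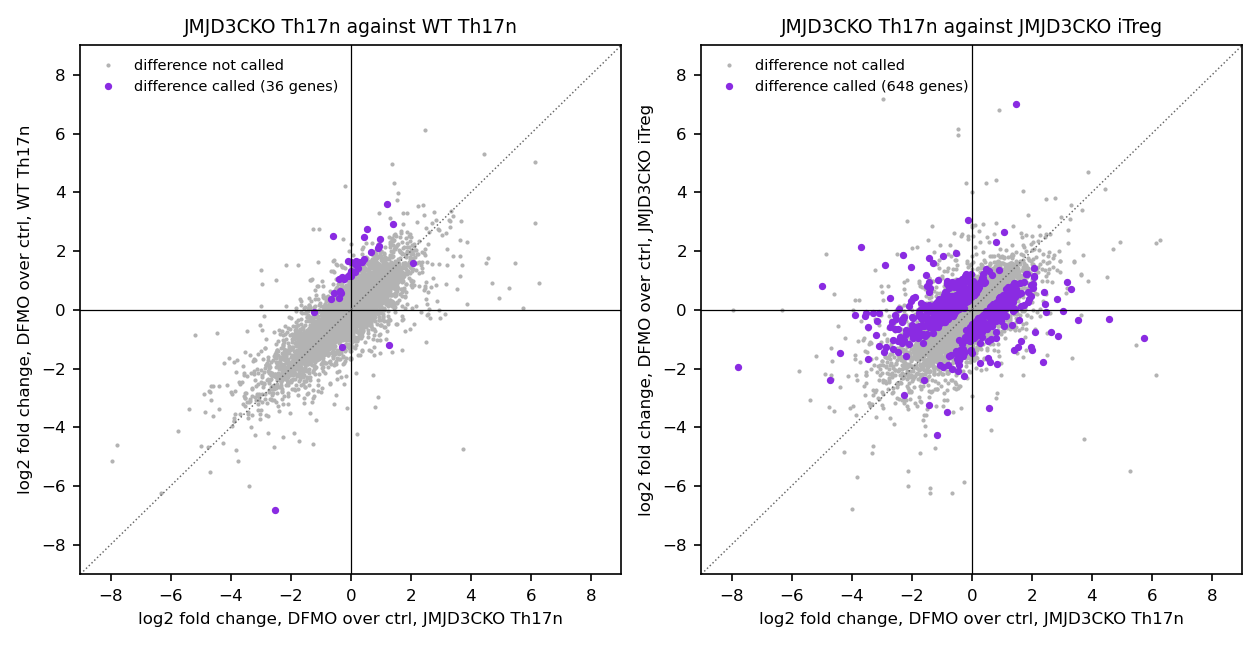
Log2 fold change of DFMO over ctrl in JMJD3CKO Th17n cells (horizontal) against that in WT Th17n cells (left) and in JMJD3CKO iTreg cells (right), 1 point per tested gene, with the line of equal change dotted. The 36 and 648 genes whose difference was called are coloured. The 2 axes of a panel share no libraries, and those of the right panel share the 3 animals.

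In all 32 genes with a difference below 0, the genotypes lay further apart in ctrl than with DFMO. Rnf187, a ubiquitin ligase gene, was at 406, 386 and 390 CPM with DFMO and 156, 160 and 194 CPM in ctrl in JMJD3CKO cells. In WT cells it was at 357 to 373 CPM with DFMO and 29.4 to 30.5 CPM in ctrl, and the difference between the responses was -2.39 ± 0.40 (adjusted p = 0.0029). Thus the DFMO libraries of both genotypes stood near each other, and the ctrl libraries did not.

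Dusp2, a phosphatase gene, was at 111, 114 and 116 CPM with DFMO and 61.0, 71.6 and 96.8 CPM in ctrl in JMJD3CKO cells, and at 86.1 to 93.2 CPM with DFMO and 9.52 to 15.5 CPM in ctrl in WT cells (difference -2.19 ± 0.38, adjusted p = 0.0045). Plbd2 was at 115, 108 and 115 CPM with DFMO and 108, 132 and 122 CPM in ctrl in JMJD3CKO cells, and at 117 to 140 CPM with DFMO and 29.0 to 51.7 CPM in ctrl in WT cells (-1.77 ± 0.24, adjusted p = 0.000607). Micu2, a regulator of mitochondrial calcium uptake (-1.62 ± 0.30), and Kctd13 (-2.06 ± 0.32) had the same pattern. On the TPM scale the calls of Rnf187, Dusp2 and Micu2 were lost, with adjusted p of 0.0707, 0.146 and 0.0502.

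The 4 genes with a difference above 0 were Ly6g, Plac8, Olfr1033 and Hmgn2. Plac8 was at 30.4, 12.1 and 26.7 CPM with DFMO and 9.17, 9.95 and 9.58 CPM in ctrl in JMJD3CKO cells, against 5.29 to 7.28 CPM with DFMO and 7.90 to 17.7 CPM in ctrl in WT cells, with a change of 1.27 ± 0.32 in JMJD3CKO and -1.19 in WT cells (difference 2.46 ± 0.42, adjusted p = 0.00434, lost on the TPM scale at 0.0527). Hmgn2, a nucleosome-binding protein gene, rose in both genotypes (2.08 ± 0.08 in JMJD3CKO and 1.60 in WT), and its difference of 0.49 ± 0.11 was lost under 6 of 11 alternatives. Olfr1033 differed by 0.97 ± 0.20, lost under 4 of 11. Ly6g was at 21.8, 10.1 and 21.7 CPM with DFMO and 110, 130 and 72.8 CPM in ctrl in JMJD3CKO cells, and at 0 to 0.780 CPM with DFMO and 31.9 to 65.4 CPM in ctrl in WT cells, and it belongs to a family of close copies among which reads can be split.

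**Figure D5:**
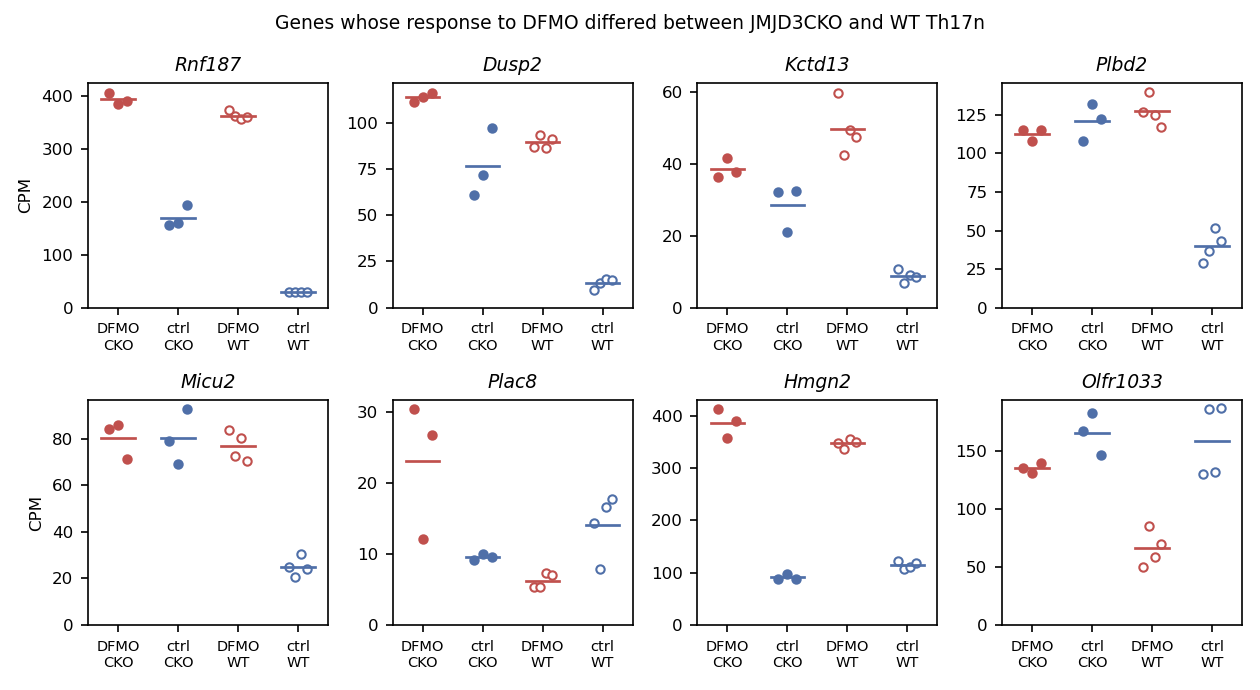
Level in CPM (linear axes starting at 0) of 8 genes whose response to DFMO differed between genotypes, with DFMO left of ctrl and JMJD3CKO (filled, n = 3) left of WT (open, n = 4). Points are libraries and lines are means. In Rnf187, Dusp2, Kctd13, Plbd2 and Micu2 the WT ctrl libraries stand below the other 3 groups, and in Plac8 the JMJD3CKO DFMO group has the highest mean, with 1 library (12.1) within the range of WT ctrl.

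Against JMJD3CKO iTreg cells the response differed more. DFMO changed 4181 genes there (38.1%), and 3003 were called in both cultures, which is 59.9% of the Th17n calls and 71.8% of the iTreg calls, 61 of them with opposite signs. The difference was called for 648 of 10985 genes (5.9%), 242 above 0 (2.2%) and 406 below 0 (3.7%), taken as the Th17n minus the iTreg response. The highest counts among the lists were 12 of 38 DNA replication genes, 9 of 21 Treg genes and 8 of 15 IL-2 and STAT5 genes. Some others were low, such as 1 of 34 ribosome biogenesis genes, 1 of 40 nuclear respiratory genes and 0 of 18 TGF-beta response genes. The difference was called for none of 13 polyamine synthesis genes at an adjusted p under 0.05 in edgeR, 2 of which had an unadjusted p under 0.05. In simulated data with few genes changed, the test of this difference recovered 5.97% of 1.5-fold and 43.3% of 2-fold differences, so modest differences can be missed.

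The response of Foxp3 was among these differences (2.25 ± 0.37, adjusted p = 0.000228). Slamf6, a receptor of T cell collaboration, was at 41.9, 22.3 and 37.3 CPM with DFMO and 6.42, 4.78 and 6.81 CPM in ctrl in Th17n cells, against averages of 73.6 ± 18.9 CPM with DFMO and 76.9 ± 4.24 CPM in ctrl in iTreg cells (SD, n = 3 each; difference 2.54 ± 0.40, adjusted p = 0.000141). Ccl4 behaved alike at 60.0 ± 7.6 CPM with DFMO and 47.1 ± 7.81 CPM in ctrl in iTreg cells (2.47 ± 0.39). In none of the 3 genes did the iTreg response pass the test (adjusted p = 0.416 for Foxp3, 0.841 for Slamf6 and 0.171 for Ccl4), and DFMO-treated Th17n cells lay between Th17n ctrl and iTreg levels for these 3. Other genes with a difference above 0 and no called iTreg response went past both iTreg levels. Mean CPM in DFMO-treated Th17n, DFMO iTreg and ctrl iTreg cells were 44.3, 7.34 and 4.50 for Chst2, 172, 22.9 and 11.6 for Il2, and 58.0, 0.936 and 1.73 for Ccl20.

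Crispld2 and Adm fell in Th17n cells and rose in iTreg cells. Crispld2 was at 31.1, 36.6 and 37.5 CPM with DFMO and 226, 244 and 299 CPM in ctrl in Th17n cells, and averaged 15.7 ± 2.89 CPM with DFMO and 5.43 ± 1.13 CPM in ctrl in iTreg cells (difference -4.39 ± 0.32, adjusted p = 3.99e-10). Adm, the adrenomedullin gene, was at 3.83, 6.93 and 4.63 CPM with DFMO and 22.9, 27.5 and 25.0 CPM in ctrl in Th17n cells, and averaged 17.9 ± 2.43 CPM with DFMO and 4.88 ± 0.507 CPM in ctrl in iTreg cells (-4.16 ± 0.54, adjusted p = 9.83e-06). Tgm2, the transglutaminase gene, fell in both cultures, by 0.83 in Th17n and by 3.5 in iTreg cells on the log2 scale (difference 2.67 ± 0.36, adjusted p = 1.53e-05). The remaining genes with the largest differences were Xaf1, Ccl5, Tead1 and Ccl20 above 0 and Gipr, C3 and Inhba below 0, of which Gipr was at 0 in 2 and Inhba in all 3 of the iTreg ctrl libraries, so the size of their fitted difference rests on the prior count.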

How the data were processed

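RNA was measured in 28 libraries of 8 groups. Reads were quantified with kallisto on GRCm38, per the submitters' processing notes, and its version is not given in the sources used here. The authors deposited estimated counts and TPM (length-scaled transcript shares) for 20891 genes. Of the estimated counts, 67.2% were whole within 0.001, and all were rounded before testing. How transcripts were summed, and whether strand was used, is not given in the sources used here, so reads of a gene and of one that overlaps it or runs antisense to it may be mixed.

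The estimated counts were tested with edgeR 4.0.16 in R 4.3.3 (filterByExpr, TMM scaling, quasi-likelihood F test, 8 group means, 28 libraries, Benjamini-Hochberg over 10985 genes, called at an adjusted p under 0.05). Log2 fold changes are DFMO over ctrl, ± gives the standard error, and differences between responses are interaction contrasts of the same fit. CPM use the TMM library sizes. The test was checked on simulated data for the JMJD3CKO Th17n comparison. It recovered 32.8%, 74.6% and 90.9% of genes changed 1.5-fold, 2-fold and 4-fold. In these simulated data 66 or 67 of 10920 genes were changed at each fold and the rest were equal between the groups. Libraries were drawn without an animal effect. The real comparison called 45.6% of genes, so these shares do not give the recovery there. Alternatives used DESeq2 1.42.0, limma 3.58.1 on log2(TPM + 1) or log2(TPM + 0.1), other scaling, no filter, the animal as a replicate block, the 6 libraries alone, and left-out libraries. Labels give each library's animal, and the same-numbered DFMO and ctrl libraries are from the same animal. Their deviations from the group means correlated by 0.15, 0.06 and 0.21 over 8080 genes.

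The comparison and the 54 pathway and 11 cell type lists were chosen with earlier results of these data known. Named genes were a fixed set of pathway and lineage genes, the 12 largest called changes each way at a mean of at least 10 CPM, up to 4 called genes of smallest adjusted p per list, members that moved against a list's majority, and the 5 largest differences each way per interaction. Of the fixed set, 1 gene is not reported here. Marker genes, the ribosomal proteins and Lig1 are named beside them, and Eif5a2, Ccl3 and some other list members were named after their values were seen. The main fit has no animal term, so its p-values do not use the pairing by animal. They cover the spread between libraries within a group, shared over the 8 groups, and 3 libraries a group limit precision. Intervals on counts cover counting error only.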

Additional observations from a re-analysis of the deposited data

Results flagged for a closer look

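Of 60 genes looked at, 9 had a response to DFMO in JMJD3CKO Th17n cells that differed from WT Th17n cells and 21 one that differed from JMJD3CKO iTreg cells, by the interaction contrast in edgeR with Benjamini-Hochberg adjustment. The 60 included genes picked as the largest called differences of each interaction, all 9 against WT among them, so these counts are no rate. Over all tested genes the shares called were 0.328% against WT and 5.9% against iTreg cells. Values are signed log2 differences, the JMJD3CKO Th17n response minus the other, so a value above 0 can be a smaller fall and a value below 0 a smaller rise.

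Against WT, the difference was above 0 for Ly6g (4.29), Plac8 (2.46), Olfr1033 (0.97) and Hmgn2 (0.49). Ly6g had responses of -2.52 in JMJD3CKO and -6.81 in WT cells. The difference was below 0 for Rnf187 (-2.39), Dusp2 (-2.19), Kctd13 (-2.06), Plbd2 (-1.77) and Micu2 (-1.62). None of 18 WT groups of these genes held a library far from the others, by the gap to the nearest library relative to the range. The JMJD3CKO groups were not checked in this way. In them, DFMO library 2 was at 10.1 CPM for Ly6g, with libraries 1 and 3 at 21.8 and 21.7 CPM. For Plac8 it was at 12.1 CPM, with libraries 1 and 3 at 30.4 and 26.7 CPM.

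Against iTreg cells, the difference was above 0 for Xaf1 (3.36), Ccl5 (3.12), Tead1 (3.08), Ccl20 (2.88), Tgm2 (2.67), Chst2 (2.61), Slamf6 (2.54), Ccl4 (2.47), Foxp3 (2.25), Il2 (2.21) and Hmgn2 (0.65). Ccl5 had responses of -1.15 in Th17n and -4.27 in iTreg cells. The difference was below 0 for Crispld2 (-4.39), Adm (-4.16), C3 (-3.71), Nos2 (-2.86), Haao (-2.33), Tnfrsf9 (-1.77), Eif5a (-0.73) and Stat3 (-0.66). The fitted differences of Gipr (-5.78) and Inhba (-5.52) depend on the prior count, since iTreg ctrl libraries held 0 of them, and that of Inhba was -0.17 (adjusted p = 0.885) on the TPM scale. The call of Ccl20 (adjusted p = 0.0451) was lost in 4 of 6 fits without a library, with adjusted p up to 0.079.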

How the results depend on the processing

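The count of genes changed by DFMO in JMJD3CKO Th17n cells (5013) stayed within 1.5 times under 17 alternatives, at 3782 to 5617, and 4353 to 4589 without a library. With the animal as a replicate block it was 5267. Rises outnumbered falls without the filter (2585 and 2288), on TPM (2169 and 2048) and in the 6 libraries alone (2692 and 2624).

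The 36 genes that differed from WT were 132 without the filter (22 above 0, 110 below 0), 62 with DESeq2 (57 below 0), 6 on TPM (1 above 0, 5 below 0) and 57 with the replicate block (10 above 0). Without a library they were 19 to 31 (2 to 6 above 0, 16 to 26 below 0), lowest without ctrl JMJD3CKO library 3 (19), then DFMO library 1 (22). The 648 that differed from iTreg were 460 to 587 without a library (189 to 321 above 0, 250 to 300 below 0), 871 with the replicate block, and on TPM 418 were above 0 and 256 below. The cause was not tested.

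The value of Kdm6a turned sign on TPM (0.32 and 0.36), without DFMO library 1 (0.01) and without both libraries of animal 1 (0.09), and ranged over -0.21 to 0.01 without single libraries. The depth of 2226914 to 4732039 counts limits genes of few counts.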
